A study of Saccharomyces cerevisiae with 15 samples.

Results

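The transcripts described here are those of 10 genes of the ubiquitin system of budding yeast, Saccharomyces cerevisiae: RPN4, UBI4, UBA1, UBC4, UBC5, CDC48, UFD1, NPL4, SHP1 and DOA1. They were chosen by name, as the spots whose gene symbol on the array is 1 of these, out of 5539 named genes measured. These genes and the gene lists used below were chosen with earlier results of these data known. Each of the 10 had 2 spots, and all were measured on every array, so no filter removed any of them. Wild-type cells had spent 15 min (3 arrays), 30 min (3 arrays), 1 h (6 arrays) or 18 h (3 arrays) in 1.0 mM arsenite, the As(III) form of arsenic, and every array also carried RNA of untreated wild-type cells in its other dye. The treated RNA was labelled with Cy5 on 12 arrays and with Cy3 on replicates 1, 3 and 6 at 1 h. How the cells were grown and harvested is not given in the sources used here, and no label calls the replicates separate cultures. The p-values therefore speak of the spread among these hybridised samples, part of which may be technical.

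Cells mark damaged or unneeded proteins for destruction by attaching chains of the small protein ubiquitin to them. Ubiquitin is first activated by the enzyme E1, then passed to a conjugating enzyme (E2), and placed on the target with the help of a ligase (E3). The ring-shaped ATPase Cdc48 pulls marked proteins out of complexes and membranes with the help of cofactors, and the 26S proteasome degrades them. Rpn4 is the transcription factor that drives the proteasome genes, and it is itself a very short-lived substrate of the proteasome. Arsenite binds to thiol groups of proteins and interferes with their folding.

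Each value below is a log2 ratio, likely with treated cells over untreated ones, set against the median gene of its array, so 0 means a change equal to that of the median gene. Fitted values are limma estimates with their standard errors, and those at 15 min, 30 min and 18 h are corrected for a dye effect that can be seen only at 1 h. The 1 h arrays with treated RNA in Cy3 are also the only arrays with shortened decimals and turned signs. Their medians as deposited were -0.28, 0.28 and 0.09, against -1.19, -1.21 and -0.59 on the Cy5 arrays at 1 h. What is called a dye effect here thus cannot be told apart from how the values were prepared. A gene is called higher or lower at an adjusted p under 0.05 (limma, Benjamini-Hochberg over all 5539 genes, two-sided). As deposited, the arrays' medians over all spots ranged from -1.21 to 2.19. The duplicate spots of a gene correlated with r = 0.65 on 15 min replicate 1 and 0.84 on 30 min replicate 1, against 0.88 to 0.99 on the other 13 arrays. Arrays of 1 time point correlated with each other across genes at -0.06 to 0.23 for 15 min, 0.41 to 0.93 for 30 min, 0.72 to 0.89 for 1 h and 0.45 to 0.73 for 18 h. For the 10 genes, the 2 spots differed by a median of 0.07, and by more than 1 in 1 of 150 pairs, that of NPL4 on 15 min replicate 1.

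All 10 genes were called higher after 1 h in arsenite, where 17.1% of all genes were called higher and 22.6% lower. The median of the 10 fitted log2 ratios was 0.98 at 1 h, against 0.02 over all genes. At 15 min, 3 of the 10 were called higher (RPN4, UBC4 and UBC5) and 0 lower, beside 0.668% and 0.0181% of all genes. At 30 min, 5 were called higher (UBI4, UBC4, UBC5, UFD1 and SHP1) and 0 lower, beside 3.27% and 4.48% of all genes. At 18 h, 3 were called higher (RPN4, UBI4 and UBC5) and 0 lower, beside 5.33% and 3.16% of all genes. UBC5 was called at all 4 times, and UBA1, CDC48, NPL4 and DOA1 only at 1 h. The medians of the 10 at 15 min, 30 min and 18 h were 0.66, 0.74 and 0.43, against 0.07, 0.05 and 0.03 over all genes. Without centring the arrays, the median of all genes was -0.53 at 1 h, and 2 of the 10 genes were called there, RPN4 and UBC5. All 10 kept a positive value at 1 h on that scale, from 0.06 for UBA1 to 2.48 for RPN4. The counts at the other times depended on the scaling as well. At 15 min, 2 of the 10 were called without centring, 0 after the arrays were scaled to equal spread and 3 with the trend of ratios with spot brightness removed. Spot brightness was not measured here but inferred from the ratios themselves. At 30 min these counts were 0, 1 (UBC5) and 6, and at 18 h they were 3, 2 and 4. The section on how the results depend on the processing gives the counts of all genes under these settings. It lacks those without centring at 15 min, 1 h and 18 h, so the counts of the 10 there stand without a share of all genes.

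**Figure D1:**
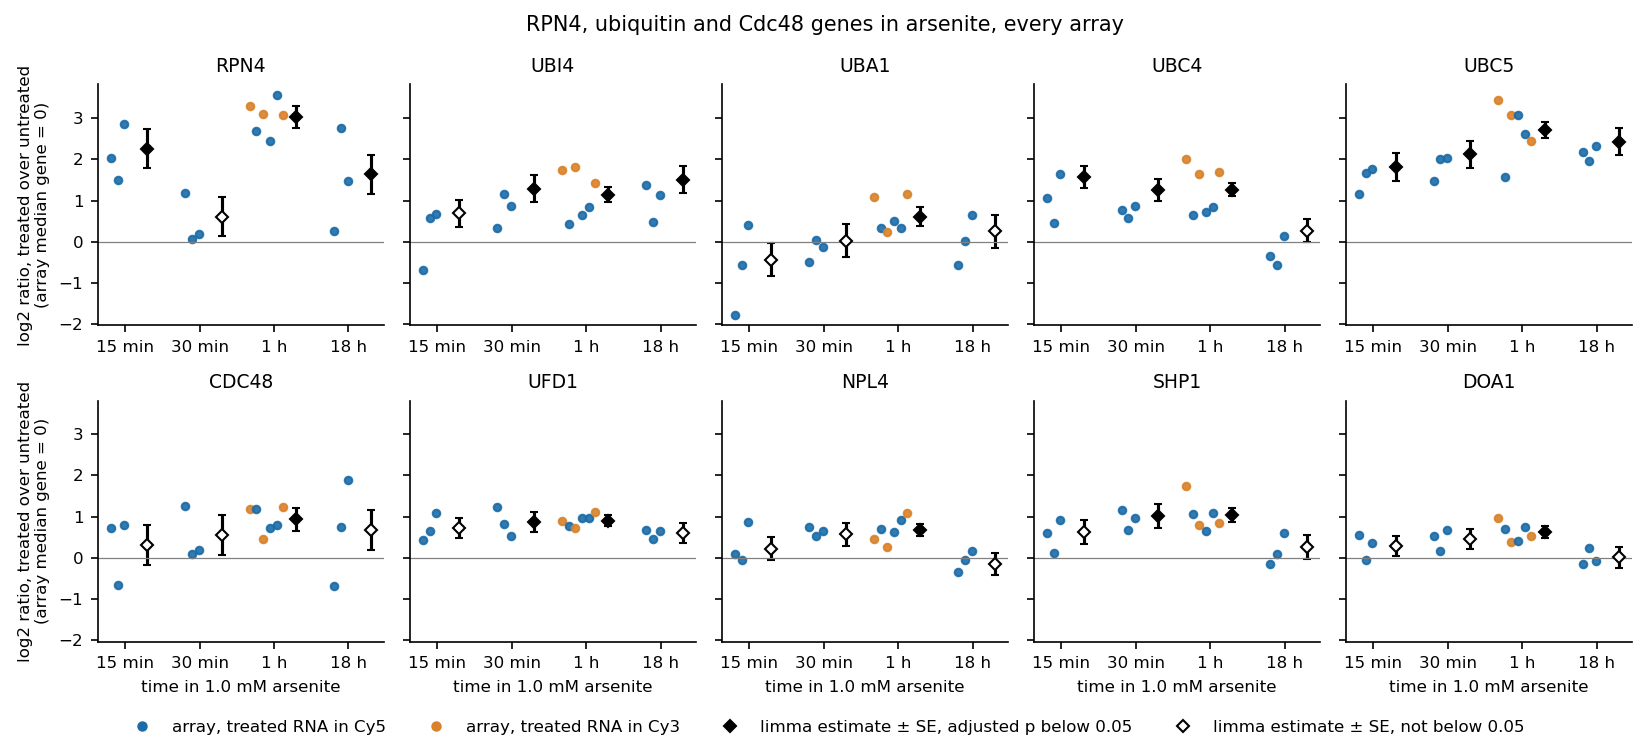
Centred log2 ratio of treated over untreated cells on each array (points, coloured by the dye of the treated RNA) for the 10 genes by time in arsenite, with the limma estimate ± SE beside each group (diamonds, filled where the adjusted p was below 0.05). RPN4 was high at 15 min and 1 h and near 0 on 2 of 3 arrays at 30 min, while UBC5 was above 1 on every array.

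RPN4, the activator of proteasome genes, had the largest fitted log2 ratio of the 10 genes at 1 h and at 15 min. Its log2 ratios were 2.03, 1.49 and 2.87 on the arrays at 15 min and 1.18, 0.07 and 0.18 at 30 min. After 1 h the lowest was 2.44, the median 3.10 and the highest 3.55, and at 18 h the arrays gave 0.25, 2.77 and 1.48. All arrays at 30 min lay below all arrays at 15 min, as in 4.46% of all genes, and below all arrays at 1 h, as in 4.1%. The arrays at 18 h were spread over most of the range seen at the other times. As deposited, 30 min replicate 1 (0.77) lay above 15 min replicate 2 (0.33), while all arrays at 30 min stayed below all arrays at 1 h. The limma value was 2.26 ± 0.47 at 15 min (4.81-fold, adjusted p = 0.0339), which put RPN4 at rank 15 of 5539 genes. At 30 min it was 0.61 ± 0.47 (adjusted p = 0.447). At 1 h it was 3.03 ± 0.27 (8.18-fold, adjusted p = 3.9e-07, rank 41). At 18 h it was 1.63 ± 0.47 (3.11-fold, adjusted p = 0.0428). The 1 h value was called in all 26 other settings tried, which include leaving out each array. The calls at the other times were less firm, with 17 of 26 for 15 min and 15 of 26 for 18 h. Without 15 min replicate 3 the first became 1.89 (adjusted p = 0.221), and without 18 h replicate 2 the last became 1.00 (adjusted p = 0.243). The 15 min call was also lost without 15 min replicate 1 (adjusted p = 0.0723), and the 18 h call without 18 h replicate 3 (adjusted p = 0.114). Both calls were also lost on leaving out 30 min replicate 3 or 1 h replicate 1, 2, 3, 4 or 6, and that at 18 h without 30 min replicate 2. In these fits the 15 min value stayed between 2.15 and 2.29, and the 18 h value between 1.52 and 1.66.

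The dip of RPN4 at 30 min was tested as a difference between times and did not pass over all genes. The 30 min value was lower than that at 15 min by a log2 difference of -1.66 ± 0.54 (95% interval -2.81 to -0.50, unadjusted p = 0.00787, adjusted p = 0.51). The 1 h value was higher than that at 30 min by 2.42 ± 0.54 (95% interval 1.27 to 3.58, unadjusted p = 0.000426, adjusted p = 0.348), the rank 8 upward difference of all genes. In each of these comparisons 0% of genes were called in either direction by limma, 0 of the 10 among them, while 383 and 286 genes had an unadjusted p under 0.05. The rise after 30 min was called when the brightness trend was removed (2.46, adjusted p = 0.0468), without the dye term (2.56, adjusted p = 0.0324) and with array weights (2.78, adjusted p = 0.0163), which is 3 of 25 other settings. The fall from 15 min was called in 1 of 25, with array weights (-2.42, adjusted p = 0.00197). With the brightness trend removed, RPN4 was also called higher at 30 min (1.24, adjusted p = 0.0442).

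UBI4 encodes polyubiquitin, a head-to-tail chain of ubiquitin units that is the stress-induced source of the protein. Its log2 ratios were -0.69, 0.58 and 0.66 at 15 min, 0.33, 1.15 and 0.87 at 30 min, and 1.37, 0.49 and 1.14 at 18 h. At 1 h the lowest was 0.43, the median 1.13 and the highest 1.81. After centring, all arrays after 15 min were above 0, and the times overlapped. As deposited the lowest of these arrays was at -0.79, 1 h replicate 2. For UBI4 the fitted log2 ratio was 0.69 ± 0.33 at 15 min (adjusted p = 0.513), 1.29 ± 0.33 at 30 min (adjusted p = 0.0285), 1.15 ± 0.19 at 1 h (2.21-fold, adjusted p = 0.000153) and 1.50 ± 0.33 at 18 h (2.84-fold, adjusted p = 0.0109). At 1 h the value moved with the dye of the treated RNA, which cannot be told apart there from how the values were prepared. The arrays with treated RNA in Cy5 averaged 0.64 (0.43 to 0.84) and those with it in Cy3 averaged 1.65 (1.42 to 1.81). The dye effect of -1.01 for UBI4 did not pass the threshold (adjusted p = 0.928), yet it raises the fitted values at 15 min, 30 min and 18 h above every array there. Without the dye term these 3 values were 0.18, 0.78 and 1.00, and the call at 30 min was lost. The 30 min call was also lost on leaving out 30 min replicate 2 or 3 or 1 h replicate 2, 3 or 6 (1.10 to 1.35), and the 18 h call on leaving out 18 h replicate 1 (1.32, adjusted p = 0.0607) or 3 (1.44, adjusted p = 0.051). The 1 h call was lost with arrays of treated RNA in Cy5 alone (0.64, adjusted p = 0.13) and as deposited (0.60, adjusted p = 0.292).

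Ubiquitin is also made from 3 fusion genes, RPL40A, RPL40B and RPS31, in which it is joined to a ribosomal protein and which supply it in growing cells. At 1 h all 3 were called lower, opposite to UBI4. RPS31 ranged over the arrays from -4.90 to -2.49 at 1 h and its fitted log2 ratio was -3.53 ± 0.38. RPL40A ranged from -3.91 to -1.60, with a fitted log2 ratio of -2.84 ± 0.36. RPL40B ranged from -2.05 to -0.90, with a fitted log2 ratio of -1.39 ± 0.16. The lowest UBI4 array at 1 h, 0.43, thus lay above the highest array of any fusion gene. At 30 min RPS31 (-2.61, adjusted p = 0.0275) and RPL40B (-1.09, adjusted p = 0.0309) were called lower, and at 18 h RPS31 (-3.24, adjusted p = 0.00698) and RPL40A (-2.31, adjusted p = 0.0329). On 30 min replicate 1, RPS31 was at -0.02 and RPL40A at 0.16, against -2.34 or lower on the other 2 arrays of that time. The 1 h calls of all 3 held in all 26 other settings. The calls at 30 min and 18 h held in 17 to 19 of 26 settings for each gene except RPS31 at 18 h, which was lost only after scaling the arrays to equal spread. Among the arrays of their own time, both 30 min calls were lost without 30 min replicate 2 or 3, and the 18 h call of RPL40A without any 1 of the 3 arrays at 18 h. UBI4 and the fusion genes share nearly the same ubiquitin sequence, so the signal of one spot may include RNA of the others, which was not tested.

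**Figure D2:**
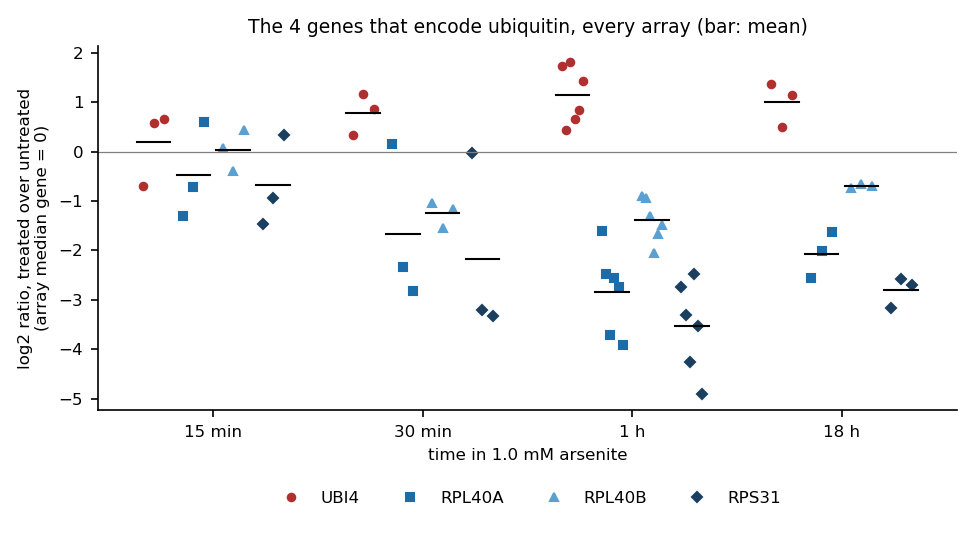
Centred log2 ratio of treated over untreated cells on each array for the 4 genes that encode ubiquitin, by time in arsenite (bars are means of the arrays). At 1 h the 6 UBI4 points lie above 0 and all points of the 3 fusion genes lie below it.

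UBA1 encodes the E1 enzyme, which activates ubiquitin for all later steps. It gave -1.77, -0.58 and 0.39 at 15 min, -0.49, 0.05 and -0.12 at 30 min, and -0.56, 0.01 and 0.65 at 18 h. The lowest array at 1 h was 0.23, the median 0.42 and the highest 1.16. After centring, every array at 1 h lay above every array at 30 min, as in 4.1% of all genes. As deposited they overlapped, with UBA1 from -0.89 to 1.18 at 1 h and from -0.90 to -0.22 at 30 min. The fitted log2 ratio at 1 h was 0.61 ± 0.23 (1.52-fold, adjusted p = 0.0487), the smallest of the 10. The call held in 13 of the 26 other settings, and was lost on leaving out 1 h replicate 1, 2, 4, 5 or 6, 30 min replicate 2 or 3, or 18 h replicate 2 (0.52 to 0.62). At 15 min, 30 min and 18 h the fitted values were -0.44 ± 0.40, 0.03 ± 0.40 and 0.25 ± 0.40, with adjusted p of 0.827, 0.974 and 0.779.

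UBC4 and UBC5 are a pair of nearly identical E2 enzymes that act in the turnover of abnormal and short-lived proteins. UBC5 gave 1.15, 1.67 and 1.78 at 15 min, 1.46, 2.01 and 2.04 at 30 min, and 2.18, 1.97 and 2.32 at 18 h. Its lowest array at 1 h was 1.58, the median 2.85 and the highest 3.44. After centring, UBC5 was thus above 1 on all 15 arrays, while as deposited it ran from 0.36 to 3.38. Its fitted log2 ratios were 1.81 ± 0.33 at 15 min (3.52-fold, adjusted p = 0.0147), 2.12 ± 0.33 at 30 min (4.35-fold, adjusted p = 0.00277), 2.71 ± 0.19 at 1 h (6.54-fold, adjusted p = 4.06e-08) and 2.43 ± 0.33 at 18 h (5.41-fold, adjusted p = 0.000461). The calls at 1 h and 18 h held in all 26 other settings, those at 15 min and 30 min in 23 and 24. The 15 min call was lost without 15 min replicate 3 (1.69, adjusted p = 0.108). The dye correction also puts the UBC5 values at 15 min, 30 min and 18 h above their arrays, and without it they were 1.53, 1.84 and 2.15.

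UBC4 gave 1.05, 0.46 and 1.65 at 15 min, 0.76, 0.58 and 0.87 at 30 min, and -0.34, -0.57 and 0.15 at 18 h. The lowest array after 1 h was 0.65, the median 1.25 and the highest 2.00. All arrays at 18 h thus lay below all arrays at 1 h, as in 5.22% of all genes. The fitted log2 ratios were 1.58 ± 0.27 at 15 min (adjusted p = 0.0111), 1.26 ± 0.27 at 30 min (adjusted p = 0.0152), 1.26 ± 0.16 at 1 h (2.40-fold, adjusted p = 1.15e-05) and 0.27 ± 0.27 at 18 h (adjusted p = 0.637). At 1 h the arrays with treated RNA in Cy5 averaged 0.74 (0.65 to 0.85) and those with it in Cy3 averaged 1.78 (1.65 to 2.00). Without the dye term the UBC4 values at 15 min, 30 min and 18 h were 1.06, 0.74 and -0.25, and the calls at 15 min and 30 min were lost. The fitted values at 30 min and 18 h lie above their arrays, as those of UBI4 do. The 15 min call was also lost without 15 min replicate 3 (1.28, adjusted p = 0.1), and the 30 min call without 30 min replicate 2 (1.33, adjusted p = 0.0767) or 3 (1.19, adjusted p = 0.123). The call at 1 h was lost only in the values as deposited (0.71, adjusted p = 0.201).

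Within each array, where the centring of the array cancels, the log2 ratio of UBC4 was lower than that of UBC5 on all 15 arrays. Transcript levels of the 2 genes were not compared. The mean of UBC4 minus UBC5 was -0.48 ± 0.63 after 15 min and -1.10 ± 0.37 after 30 min, then -1.45 ± 0.58 after 1 h and -2.41 ± 0.21 after 18 h (SD, n = 3, 3, 6 and 3). The 1 h mean differed from 0 by an exact two-sided sign-flip permutation test over the 6 arrays (p = 0.03125, the smallest it can give; UBC4 was higher on 0 of 6). The 3 arrays at 15 min, 30 min and 18 h cannot reach such a p and were not tested. The differences at 18 h ran from -2.54 to -2.17 and those at 1 h from -2.35 to -0.76, so the times overlapped. Neither the means nor these ranges are corrected for dye, and only 1 h has arrays with treated RNA in Cy3. At 1 h UBC4 and UBC5 averaged 0.74 and 2.43 on Cy5 arrays, and 1.78 and 2.99 on Cy3 arrays. Their fitted dye effects were -1.04 and -0.56, neither past the threshold, so 1 h differs from the other times in dye as well. The enzymes encoded are nearly identical, so RNA of one gene may bind spots of the other. Spot sequences were not available here, so this was not tested and the size of the difference is uncertain.

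**Figure D3:**
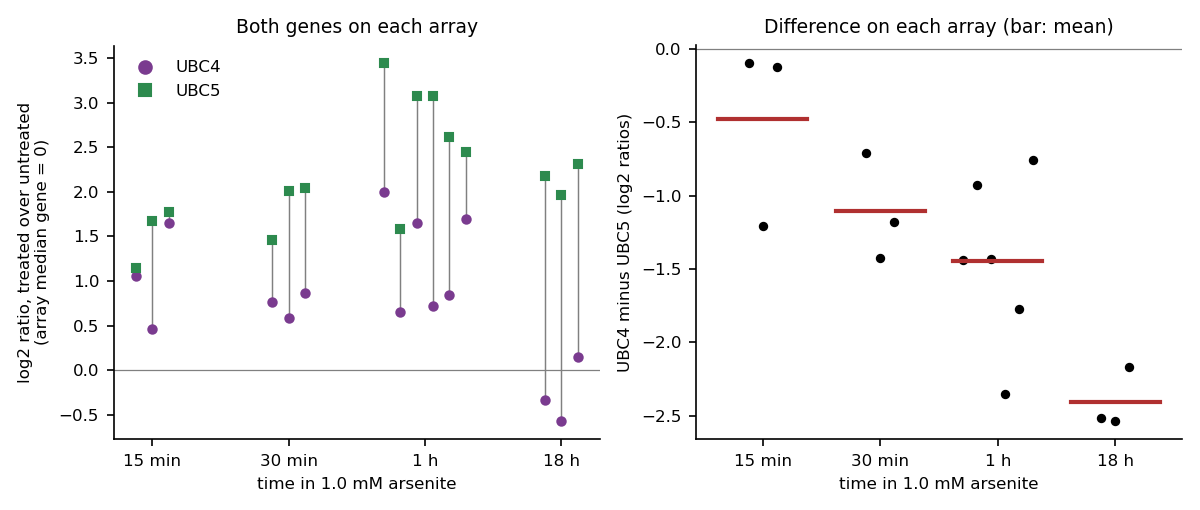
Left, centred log2 ratios of UBC4 and UBC5, joined by a line for each array, by time in arsenite. Right, UBC4 minus UBC5 on each array with the mean of each time as a bar, which is below 0 on all 15 arrays and averages -2.41 at 18 h.

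CDC48 encodes the ATPase itself. It gave 0.73, -0.67 and 0.79 at 15 min, 1.27, 0.08 and 0.20 at 30 min, and -0.68, 0.74 and 1.89 at 18 h. Over the arrays at 1 h the lowest was 0.46, the median 1.00 and the highest 1.23. The arrays at 15 min and 18 h had both signs, and those at 1 h were all above 0. At 1 h its fitted log2 ratio was 0.93 ± 0.28 (1.91-fold, adjusted p = 0.0143). It was 0.31 ± 0.48 at 15 min, 0.55 ± 0.48 at 30 min and 0.68 ± 0.48 at 18 h, with adjusted p of 0.927, 0.512 and 0.46. The 1 h call was lost without 1 h replicate 6 (0.86, adjusted p = 0.0546), with arrays of treated RNA in Cy5 alone (0.90, adjusted p = 0.147) and as deposited (0.38, adjusted p = 0.524). With the brightness trend removed, CDC48 was called at 30 min (1.36, adjusted p = 0.00359) and at 18 h (1.13, adjusted p = 0.00928) as well.

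Ufd1 and Npl4 form the heterodimer that brings ubiquitin-marked proteins to Cdc48. UFD1 gave 0.43, 0.64 and 1.10 at 15 min, 1.22, 0.83 and 0.52 at 30 min, and 0.67, 0.45 and 0.66 at 18 h. At 1 h its lowest array was 0.73, the median 0.93 and the highest 1.12. After centring, UFD1 was thus above 0 on all 15 arrays, in a narrow range, while as deposited it ran from -0.52 to 2.66. Its fitted log2 ratios were 0.73 ± 0.24 at 15 min (adjusted p = 0.244), 0.86 ± 0.24 at 30 min (adjusted p = 0.041), 0.91 ± 0.14 at 1 h (1.87-fold, adjusted p = 8.76e-05) and 0.60 ± 0.24 at 18 h (adjusted p = 0.151). The 30 min call held in 10 of 26 other settings, and was lost on leaving out any array at 30 min or 1 h or 18 h replicate 2 (0.68 to 1.03). NPL4 gave 0.09, -0.05 and 0.86 at 15 min, 0.74, 0.54 and 0.64 at 30 min, and -0.34, -0.05 and 0.16 at 18 h. At 1 h its lowest array was 0.26, the median 0.67 and the highest 1.08. All arrays at 18 h were lower, as in 5.22% of all genes. The fitted log2 ratio of NPL4 was 0.68 ± 0.16 at 1 h (1.60-fold, adjusted p = 0.00242), and at 15 min, 30 min and 18 h it was 0.22, 0.57 and -0.15, each ± 0.27.

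Shp1 is a cofactor of Cdc48 that binds it through a UBX domain, and Doa1 is a WD-repeat cofactor that takes part in keeping the pool of free ubiquitin. SHP1 gave 0.60, 0.11 and 0.92 at 15 min, 1.16, 0.66 and 0.96 at 30 min, and -0.15, 0.08 and 0.60 at 18 h. At 1 h its lowest array was 0.66, the median 0.96 and the highest 1.74, above all arrays at 18 h. The fitted log2 ratio of SHP1 was 1.02 ± 0.29 at 30 min (adjusted p = 0.0444, called in 11 of 26 other settings and lost on leaving out any array at 30 min or 1 h or 18 h replicate 2) and 1.04 ± 0.17 at 1 h (2.05-fold, adjusted p = 0.000142). At 15 min and 18 h it was 0.63 and 0.27, each ± 0.29, and was not called. DOA1 gave 0.54, -0.06 and 0.35 at 15 min, 0.53, 0.16 and 0.67 at 30 min, and -0.15, 0.25 and -0.07 at 18 h. At 1 h its lowest array was 0.38, the median 0.62 and the highest 0.97, and the arrays at 18 h were again all lower. Every array at 18 h was below every array at 1 h in 5.22% of all genes. The fitted log2 ratio of DOA1 at 1 h was 0.63 ± 0.14 (1.54-fold, adjusted p = 0.00227), and at 15 min, 30 min and 18 h it was 0.28, 0.46 and 0.01, each ± 0.25.

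Between 18 h and 1 h, 0 of the 10 genes were called, beside 1.05% of all genes higher and 0.361% lower at 18 h. The fitted difference was negative in 9 of the 10, with a median of -0.49 against 0.04 over all genes. An unadjusted p under 0.05 was reached by 752 of all 5539 genes and by 5 of the 10: RPN4 (-1.40 ± 0.54, adjusted p = 0.25), UBC4 (-0.995 ± 0.32, adjusted p = 0.148), NPL4 (-0.83 ± 0.31, adjusted p = 0.23), SHP1 (-0.77 ± 0.34, adjusted p = 0.32) and DOA1 (-0.62 ± 0.29, adjusted p = 0.355). Of 25 other settings, the difference was called in 3 for UBC4, 2 each for NPL4 and SHP1, 1 for RPN4 and 0 for DOA1. Without the dye term that of UBC4 was -1.52 (limma, adjusted p = 0.0185). For UBI4 the difference was 0.36 ± 0.38 and for UBC5 it was -0.27 ± 0.38, both within their error. In 5 genes (UBC4, UFD1, NPL4, SHP1 and DOA1) every array at 18 h lay below every array at 1 h, as in 5.22% of all genes, while 6.48% had every array at 18 h above. After centring, RPN4 lay lower on all arrays at 30 min than at 15 min, as did 4.46% of all genes. On the same scale RPN4 and UBA1 lay higher on all arrays at 1 h than at 30 min, as did 4.10%. In the values as deposited the median of all genes was 1.59 higher at 18 h than at 1 h, and that of the 10 genes was 1.06 higher, so the sign of the difference at 18 h rests on the centring.

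Across the other parts of the ubiquitin system at 1 h, the shuttles that carry marked substrates to the proteasome and the proteasome subunits had the largest shares of genes called higher. Over all genes, 17.1% were called higher and 22.6% lower at that time. All 3 genes of the ubiquitin shuttles were called higher: DDI1 at 2.67 ± 0.17, DSK2 at 0.79 ± 0.21 and RAD23 at 0.76 ± 0.20. Of 32 subunits of the 26S proteasome tested, 26 were called higher and 0 lower, with a median of 1.07. The largest were RPT5, a regulatory-particle ATPase (1.76 ± 0.20), PRE8, a core-particle subunit (1.67 ± 0.22) and RPN12, a lid subunit (1.50 ± 0.15). Of 14 assembly and accessory factors, 6 were called higher and 0 lower, led by UMP1, a chaperone of core-particle maturation (1.37 ± 0.16), TMC1 (1.31 ± 0.18) and PBA1, another assembly chaperone (1.27 ± 0.14). As deposited, 2 proteasome subunits were called higher and 1 lower at 1 h, and 1 shuttle and 0 assembly factors were called higher. At 15 min, 30 min and 18 h, 1, 10 and 0 of the 32 subunits were called higher and 0 lower. Of all genes, 0.668%, 3.27% and 5.33% were called higher at these times. The 30 min count of subunits was 0 as deposited, 0 after scaling to equal spread and 29 with the brightness trend removed. At 15 min it was 0, 0 and 3 under the same settings and at 18 h 0, 0 and 4, and without the dye term 1 subunit was called lower at 18 h. Counts of all genes under these settings, other than as deposited at 15 min and 18 h, are in the section on how the results depend on the processing. DDI1 was called at all 4 times, at 1.71, 2.29, 2.67 and 1.26 in order of time, with adjusted p no higher than 0.0188. After scaling to equal spread its calls at 15 min, 30 min and 18 h were lost, with adjusted p of 0.17, 0.0738 and 0.401, and as deposited that at 15 min was lost (adjusted p = 0.062). Its 15 min call was also lost without 15 min replicate 3, and its 18 h call without 18 h replicate 2 or 3.

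Among 12 other Cdc48 cofactors and partners, 6 were called higher and 0 lower at 1 h, beside 17.1% and 22.6% of all genes. Their median was 0.48. The largest was CUZ1, a zinc-finger protein that binds Cdc48 and the proteasome and is known for its part in arsenite tolerance. CUZ1 gave 1.18, 0.92 and 1.36 at 15 min, 1.46, 1.49 and 2.01 at 30 min, 1.77 to 2.46 at 1 h, and 0.60, 1.22 and -0.16 at 18 h. All its arrays at 18 h were below all arrays at 1 h, as in 5.22% of all genes. Its fitted log2 ratio was 1.17 ± 0.30 at 15 min (adjusted p = 0.107), 1.67 ± 0.30 at 30 min (adjusted p = 0.00597), 2.10 ± 0.17 at 1 h (4.29-fold, adjusted p = 1.66e-07) and 0.57 ± 0.30 at 18 h (adjusted p = 0.29). CUZ1 was lower at 18 h than at 1 h by a tested difference of -1.54 ± 0.35 (adjusted p = 0.0366), a call kept in 13 of 25 other settings, and as deposited the difference was 0.01. The 30 min call of CUZ1 was lost without 30 min replicate 3, as deposited (1.87, adjusted p = 0.245) and after scaling to equal spread (1.63, adjusted p = 0.0934). TMC1, a zinc-finger protein related to Cuz1, was called at all 4 times, at 1.66 ± 0.31, 1.13 ± 0.31, 1.31 ± 0.18 and 1.58 ± 0.31 in order of time. These calls held in 18, 14, 25 and 25 of 26 other settings. UBX4 (1.28 ± 0.14) and UBX6 (1.19 ± 0.24), both UBX-domain proteins, were the next largest of the Cdc48 list at 1 h. UBX6 was also called at 18 h (2.14 ± 0.42, adjusted p = 0.006). As deposited, 1 of the 12 was called at 1 h.

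Among the enzymes that attach and remove ubiquitin, genes were called in both directions at 1 h, in shares not far from the 17.1% higher and 22.6% lower of all genes. Of 10 other E2 genes, 2 were called higher (UBC1 at 0.86 ± 0.16 and CDC34, the E2 of cell cycle ligases, at 0.69 ± 0.20) and 1 lower (PEX4, the E2 of peroxisomes, at -1.24 ± 0.16). Of 20 ligases of protein quality control and their partners, 5 were called higher and 4 lower, with a median of 0.09. They included BUL1 (1.38 ± 0.19), an adaptor of the ligase Rsp5, RSP5 itself (-0.95 ± 0.23) and UFD2 (-1.45 ± 0.22), which lengthens ubiquitin chains on substrates bound to Cdc48. Of 18 deubiquitinating enzymes, 4 were called higher and 3 lower, with a median of -0.04, UBP5 (1.38 ± 0.22), UBP15 (-1.23 ± 0.18) and the proteasome-bound UBP6 (1.18 ± 0.20) being the largest. As deposited, 0 of these 3 lists' genes were called higher at 1 h, and 1, 3 and 4 were called lower. At 15 min and 18 h, 0 genes of these 3 lists were called, and at 30 min only UBP15 was (-1.21 ± 0.32, adjusted p = 0.0321), a call lost as deposited and without 30 min replicate 2 or 3 or 1 h replicate 2, 3 or 6.

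Known or proposed regulators of RPN4 transcription were measured too. YAP1, the oxidative stress activator, was called higher at 1 h (0.99 ± 0.17, adjusted p = 0.000227) and at 18 h (1.20 ± 0.29, adjusted p = 0.0205), and PDR1, an activator of drug resistance genes, at 1 h alone (0.86 ± 0.20, adjusted p = 0.00239). PDR3 (0.44 ± 0.18), the heat shock factor gene HSF1 (0.23 ± 0.18), and the general stress activator genes MSN2 (-0.18 ± 0.15) and MSN4 (-0.40 ± 0.17) were not called at 1 h. MSN4 was called higher at 18 h (1.10 ± 0.30, adjusted p = 0.0339), and its difference of 1.50 ± 0.35 from 1 h passed the test (adjusted p = 0.0426), calls that held in 18 of 26 and 12 of 25 other settings. The 18 h call of YAP1 was lost without 18 h replicate 2 or 3 and after scaling to equal spread (adjusted p = 0.168). At 1 h, 0 of these 6 genes were called in the values as deposited.

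**Figure D4:**
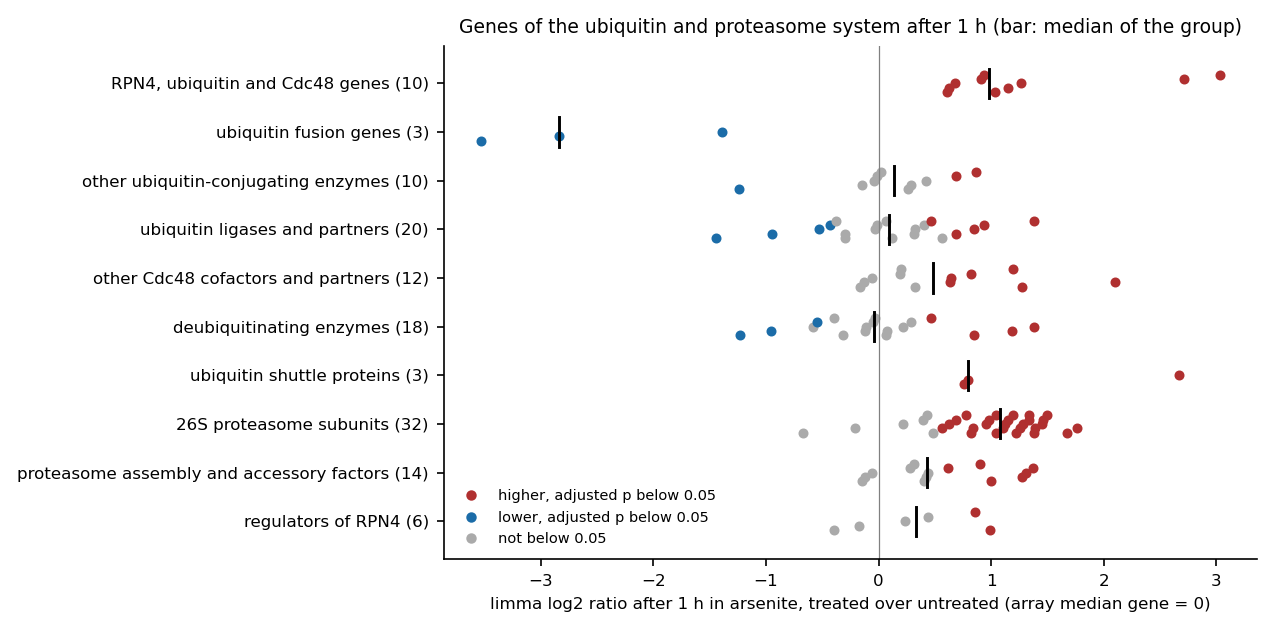
Limma log2 ratio of treated over untreated cells after 1 h for each gene of the 10 groups of the ubiquitin and proteasome system (points, number of genes tested in brackets, coloured by the call; bars are medians). All points of the 10 genes described and of the shuttles are called higher, 26 of 32 proteasome subunits are, and the 3 fusion genes are called lower.

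The genes whose log2 ratios over the 15 arrays were most like those of RPN4 were APJ1, a J-domain co-chaperone (r = 0.91), CTH1, an mRNA-binding protein (r = 0.91), ERO1, the oxidase of disulfide formation in the endoplasmic reticulum (r = 0.89), AQY2 (r = 0.87), GPI15 (r = 0.86) and HCA4 (r = 0.86). Of these 6, APJ1 and ERO1 remained among the 6 most alike after the arrays were scaled to equal spread. For UBI4 they were ADE6 (r = 0.90), PIP2 (r = 0.87), YOL153C, GYP5 and YER079W (each r = 0.86) and HST2 (r = 0.85), of which HST2 remained after the same scaling. These correlations describe 15 arrays that differ in time, dye and spread, and carry no test. The other 9 genes were not close to RPN4: DOA1 was the nearest, at rank 577 of 5538 genes (r = 0.51), and UBI4 the farthest, at rank 2386 (r = 0.08). Over the 45 pairs of the 10 genes, r ranged from -0.06 for UBI4 and DOA1 to 0.85 for SHP1 and DOA1, with a median of 0.45.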

How the data were processed

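The authors deposited 1 log2 ratio per spot and array for 13056 spots. The log2 scale follows from 10 arrays whose values are ratios of 2 whole numbers (relative tolerance 5e-14). It was taken from these for replicate 1 at 15 min and at 30 min, where this does not hold, and for the 3 arrays with treated RNA in Cy3, whose shortened decimals do not allow the check. The direction, likely treated over untreated, comes from the dyes, the titles and minus-signed zeros (30, 5 and 23) on the 3 arrays that carry treated RNA in Cy3, which show that signs had been turned. The sources used here do not give the authors' background correction and normalization, and signal over background is unknown, so the number of arrays limits the precision.

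The platform annotation gave 1 gene name for 11138 spots, 1918 had none and were left out, and 11128 were found in assembly R64, used for names only. SEM1 had no named spot, so 32 of 33 proteasome subunits were tested. Arrays were centred on the median gene, spots of a gene averaged, and limma 3.58.1 in R 4.3.3 was fitted to the 15 arrays together, with 1 mean for each time and a gene-specific dye effect (10 residual degrees of freedom, prior 5.41, dye effect called in 0 genes). Each time was tested against 0 and against the time before it. The script was tested on simulated data. The members and gene lists were chosen with earlier results of these data known. The genes named are the 10 members, at most 3 genes per other list with the largest ratio among those called at 1 h, CUZ1, TMC1, the regulators of RPN4, and the 6 genes most like RPN4 and UBI4. Alternatives were no centring, scaling to equal spread, removal of the brightness trend (loess, span 0.3), no dye term, treated RNA in Cy5 only, each time alone, array weights, single spots, a replicate block, leaving out each array, and, chosen after seeing the data, leaving out the 2 arrays not made of whole-number ratios and scaling for the genes most like UBI4. Only ratios were available, so spot brightness was inferred from the 2 whole numbers, in lowest terms, recovered for each ratio on 10 arrays. It is too low where the 2 intensities shared a factor. Its median over those arrays was used for all 15 arrays, including those where no whole numbers were recovered. A planned promoter motif search was not run, since no promoter sequence was used here.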

Additional observations from a re-analysis of the deposited data

How the results depend on the processing

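Of 1790 refitted values of the 10 genes, 1667 kept their side of the threshold, 105 lost a call and 18 gained one. Of the 1667, 80 changed sign, all of them values called in neither fit, and 0 called values did. Causes were not tested. Without centring, 2 of the 10 were called at 1 h and 0 at 30 min, with 101 genes of all at 30 min and 1015 between 18 h and 1 h (429 and 78 with it). Scaling left 5, 147 and 220 genes at 15 min, 30 min and 18 h (38, 429 and 470 without), and 0 and 1 of the 10 at 15 and 30 min. With the brightness trend removed there were 67, 693 and 847 genes at the same times, 10 between 1 h and 30 min and 264 between 18 h and 1 h, with 1 and 4 of the 10 in these differences. Without the dye term, 978 genes were called at 30 min, 903 at 18 h, 26 between 1 h and 30 min and 278 between 18 h and 1 h, with 3, 4, 1 and 1 of the 10. With Cy5 arrays alone there were 776 genes at 30 min, 1316 at 1 h (2197 in all arrays) and 726 at 18 h, with 3 of the 10 at 30 min. Each time fitted alone gave 15 genes at 15 min and 15 at 30 min, and 1, 0 and 1 of the 10 at 15 min, 30 min and 18 h. Array weights gave 304, 2440 and 1414 genes at 15 min, 30 min and 18 h, and 1570, 47 and 495 in the 3 differences, with 2, 1 and 3 of the 10. Without the 2 arrays not made of whole-number ratios there were 71 and 902 genes at 15 and 30 min, 3 of the 10 at 30 min, and 105, 1 and 194 in the differences.

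Leaving out each array gave 13 to 47 genes at 15 min, 38 to 769 at 30 min, 1779 to 2374 at 1 h, 227 to 589 at 18 h, and 0 to 213, 0 to 1 and 9 to 173 in the differences. Of the 10, 0 to 3, 1 to 5 and 1 to 3 were called at 15 min, 30 min and 18 h. The lowest came without 15 min replicate 3 (13 genes, 0 of the 10) and without 30 min replicate 3 (38 genes), the highest at 30 min without 30 min replicate 1 (769). UBC4 minus UBC5 at 1 h ran from -1.59 to -1.27 with 1 array left out, where 5 arrays cannot give an exact p below 0.0625.

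With the replicate number as a block (consensus correlation -0.05), 2192 genes and 9 of the 10 were called at 1 h; UBA1 was lost (adjusted p = 0.0507), and no other call of the 10 changed. Same-numbered arrays correlated at -0.55 to 0.64 in their deviations from the fit. Arrays of different numbers were not compared in this way, so whether the numbers pair the arrays is not known.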
